A study of Mus musculus with 2 samples.

Results

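The cells described here are regulatory T cells from mouse melanoma tumours in which RNA of Areg or of Il10 was caught. They were selected on measured counts of unique molecular identifiers (UMIs, 1 for each captured RNA molecule): at least 1 UMI of Foxp3, none of Cd8a, Cd8b1, Mki67 or Top2a, and at least 1 of Areg or Il10. Of 16969 barcodes, 10713 passed the barcode filter (at least 500 genes, at most 10% mitochondrial UMIs, 1 hashtag with at least 80% of hashtag UMIs). Among those, 850 held a Foxp3 UMI, 517 of which had no Cd8a or Cd8b1 UMI, and 334 passed the whole Foxp3 gate. Of the Foxp3 cells with an Areg or Il10 UMI, 100 were left out for a Cd8a or Cd8b1 UMI. A further 69 were left out for a Mki67 or Top2a UMI. The 334 gated Foxp3 cells include the 107 Areg or Il10 cells described here. The other 227 gated Foxp3 cells held no UMI of either gene and served as the reference. Foxp3, Areg, Il10 and the 4 genes that had to be absent were therefore not tested between these arms.

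Tumours came from C57BL/6J mice given the bacterium Lactobacillus reuteri (LR, 4 mice) or phosphate-buffered saline (PBS, 4 mice). The labels also call the second group untreated, and they give no age, sex or tumour line. CD90.2-enriched live cells were stained with a hashtag antibody for each mouse and pooled onto 1 lane, so lane and library are shared by all mice. The labels name CD3+ T cells in 1 field and a sort of 8000 CD8+ cells per mouse in another, so Foxp3 cells without a Cd8 UMI fall outside the stated sort and their number per mouse can be set by it.

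Foxp3 is the transcription factor that defines regulatory T cells, which restrain other T cells. Amphiregulin, encoded by Areg, is a ligand of the epidermal growth factor receptor that is made as a membrane protein, released by sheddases, and known from regulatory T cells of injured tissue. Interleukin 10, encoded by Il10, is a secreted cytokine that dampens antigen-presenting cells and inflammation. Effector regulatory T cells that make such products are known to lose lymph node homing genes and to gain genes of activation. By the GENCODE M21 annotation of build GRCm38, Areg lies on chromosome 5 (91139599 to 91148432), Il10 on chromosome 1 (131019845 to 131024974) and Foxp3 on chromosome X (7573644 to 7595245).

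LR mouse 1 stood apart before any comparison. It gave 8 gated Foxp3 cells among 1292 passing cells (0.619%), while the other 7 mice gave 1.79% to 6.56%. It held 1 Areg or Il10 cell, below the minimum of 5 cells per mouse and arm, so the gene tests rest on 7 mice, 3 LR and 4 PBS. Summed member counts in those mice ran from 26703 to 115965 UMIs.

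Of the 107 cells, 42 had Areg without Il10, 47 had Il10 without Areg, and 18 had both. Areg reached 18 UMIs in a single cell and summed to 237, while Il10 reached 8 and summed to 143. For 32 cells the choice rested on exactly 1 UMI, 26 cells had 2, 49 had 3 or more and 7 had 10 or more. The reference cells just outside the threshold had 0 by construction. Depth moved with the choice: cells with 0, 1, and 2 or more such UMIs had median totals of 3317, 4393.5 and 5004 UMIs. Over all members the median was 4689 UMIs and 2033 genes, against 3317 UMIs and 1531 genes in the reference.

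The regulatory T cell label of the Areg or Il10 cells was checked with genes that took no part in the choice. At least 2 of Il2ra, Ctla4, Ikzf2 and Tnfrsf18 were detected in 106 of 107 members (99.1%). The reference was more mixed, with 179 of 227 cells (78.9%) reaching that mark. Its 93 cells with a single Foxp3 UMI reached it in 55.9%, its 134 cells with 2 or more Foxp3 UMIs in 94.8%, and CD4 cells without a Foxp3 UMI in 17.8% of 1373. A Cd4 UMI was seen in 65.4% of members and 56.8% of reference cells. These shares were not thinned to equal depth. The Scrublet doublet caller marked 5 members and 14 reference cells, which were kept.

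Markers of other cells were checked as whole lists, in CPM (counts scaled to a total of 1000000 per sum). Of the natural killer cell list 3 of 7 genes were detected in members, summing to 0 to 131 CPM per mouse against 0 to 162 in the reference, with Ncr1, Klrb1c, Klra8 and Klra4 at 0. The gamma delta T cell list had 1 of 6 detected, at up to 9.25 CPM and with Trdc at 0, and the mast cell and basophil list 2 of 8, at up to 17.2 CPM and with Mcpt8 at 0. Markers shared with antigen-presenting cells were more abundant. In the myeloid list 9 of 15 genes were detected, summing to 416 to 4831 CPM in members and 170 to 5550 in the reference. Lyz2, Adgre1 and Csf1r of macrophages were at 0 in members, while the antigen presentation genes Cd74, H2-Aa and H2-Ab1 were detected. The highest member sum was that of LR mouse 4. There 1 member cell, which was kept, held 278 of 324 Cd74, 110 of 114 H2-Aa and 54 of 59 H2-Ab1 UMIs. It also held 73 of 105 UMIs of Cst3, which is not on the list. In the B cell list 3 of 6 genes were detected, summing to 112 to 492 CPM in members and 92.8 to 469 in the reference, with Cd79a and Ms4a1 at 0. The list of type 2 innate lymphoid cells had 3 of 7 detected, namely Il1rl1, Gata3 and Klrg1, which regulatory T cells of tissues also express. They summed to 373 to 1096 CPM in members (median 612) and 300 to 971 in the reference (median 402), and 33 members held at least 2 of them. Il5 and Il13, the cytokines of those cells, were at 0.

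Areg and Il10 were detected more often in Foxp3 cells than in the other classes of T cell. To compare cells of unequal depth, each was thinned to 1500 UMIs, which left out 28 of the 334 gated cells. An Areg or Il10 UMI then remained in 18.0% of gated Foxp3 cells (55 of 306, exact binomial 95% interval 13.8 to 22.7), against 32.0% unthinned. Cycling Foxp3 cells, with a Mki67 or Top2a UMI, came to 15.7% (28 of 178, interval 10.7 to 21.9), which overlaps the gated cells.

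Free RNA in the droplets can add to such shares, and its level was not measured. CD8 cells, given for comparison, came to 0.673% after thinning (37 of 5498) and 2.21% unthinned. Their median was 3745.5 UMIs, against 3714.5 in gated Foxp3 cells. Whether the Areg and Il10 UMIs of CD8 cells were free RNA or their own was not tested. CD4 cells without a Foxp3 UMI came to 1.39% (16 of 1155) and all other cells to 3.70% (75 of 2025). That last class is a remainder that includes Foxp3 cells with a Cd8 UMI. Before thinning, 100 of its 154 cells with an Areg or Il10 UMI were such Foxp3 cells. Gated Foxp3 cells held 24.97% of all Areg UMIs and 24.1% of all Il10 UMIs of passing cells. Cycling Foxp3 cells held 23.5% and 21.8%, and all other cells held the most, at 35.1% and 32.2%. CD8 cells held 10.9% and 15.7%, and CD4 cells without a Foxp3 UMI 5.58% and 6.24%. These intervals cover counting error over pooled cells only, not the spread between mice.

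**Figure D1:**
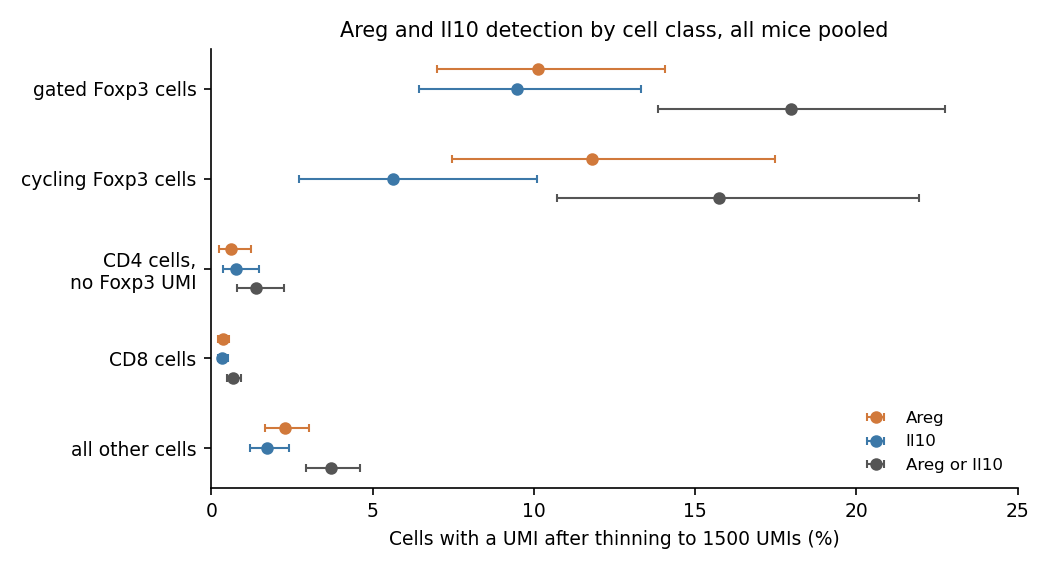
Share of cells with an Areg, Il10 or either UMI (x axis, percent) in 5 cell classes after thinning each cell to 1500 UMIs, with exact binomial 95% intervals over cells pooled from all mice. Gated Foxp3 cells (18.0% for either gene) and cycling Foxp3 cells (15.7%) lie to the right of CD4 cells without Foxp3 (1.39%) and CD8 cells (0.673%).

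Areg was somewhat more frequent among cells with Il10 than among the other gated cells. It was detected in 27.7% of gated Foxp3 cells with Il10 and in 15.6% of those without, and in 17.2% against 9.39% after thinning. The thinned overlap rests on 5 cells. Both genes took part in the choice of cells, so this is a description with no test.

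The share of gated Foxp3 cells that were Areg or Il10 cells varied more among LR mice than among PBS mice. In LR mice 1 to 4 the shares were 12.5%, 42.9%, 42.1% and 34.5%. In PBS mice 6 to 9 they were 25%, 28.6%, 28.6% and 31.4%. The mean was 33.0% ± 14.2 in LR and 28.4% ± 2.63 in PBS mice (SD, n = 4 each; two-sided exact permutation p = 0.543, Benjamini-Hochberg value 0.814 over 3 shares). The difference of 4.61 points was smaller than the spread of the LR mice.

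LR mouse 1, with 1 member among 8 cells, decided that comparison. Without it the LR mean was 39.8% ± 4.60 (n = 3) and all 3 LR mice lay above all 4 PBS mice, a difference of 11.4 points (exact permutation p = 0.0286, which is the minimum for 3 against 4 mice). Leaving out any other mouse gave differences of 1.32 to 5.62 points. With at least 2 Areg and Il10 UMIs required, the difference was 0.252 points.

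Neither gene alone separated the groups. An Areg UMI was found in 0, 30.6, 15.8 and 18.2% of gated cells in LR mice 1 to 4, and in 10.7, 15.9, 16.9 and 17.1% in PBS mice 6 to 9 (mean 16.1 ± 12.6 against 15.2 ± 3.01, SD; exact permutation p = 0.857). An Il10 UMI was found in 12.5, 20.4, 31.6 and 21.8% against 14.3, 14.3, 19.5 and 22.9% (mean 21.6 ± 7.83 against 17.7 ± 4.21, SD; exact permutation p = 0.514). The 0 in LR mouse 1 rests on 8 cells, too few to set a low limit. As a share of all passing cells, the Areg or Il10 cells came to 1.56% ± 1.00 in LR and 0.902% ± 0.344 in PBS mice (SD; exact permutation p = 0.229).

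**Figure D2:**
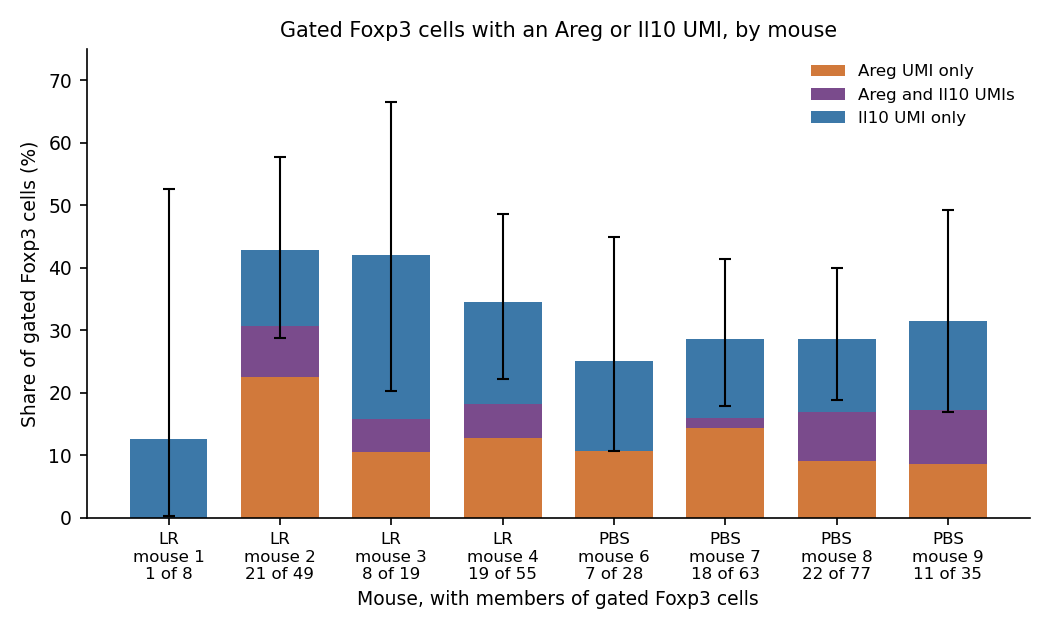
Share of gated Foxp3 cells (y axis, percent) with Areg only, both, or Il10 only in each of the 8 mice, stacked. Error bars give the exact binomial 95% interval of the whole bar, and the cell numbers stand under each mouse. LR mouse 1 (1 of 8 cells) is the lowest bar, and LR mice 2 to 4 (34.5% to 42.9%) lie above the PBS mice (25% to 31.4%) with overlapping intervals.

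Compared with the reference cells of the same mice, the Areg or Il10 cells carried more RNA of Nkg7, S100a6 and Rab11a and less of Klf2 and Gm42418. Counts were summed per mouse and arm and tested with edgeR, mouse as a block, over 1656 genes. At an adjusted p of 0.05, 3 genes were higher (0.181% of those tested) and 2 lower (0.121%), with 181 at an unadjusted p under 0.05. DESeq2 called 1 higher, Nkg7, and 2 lower, Klf2 and Gm42418. S100a6 and Rab11a were not called there (DESeq2 adjusted p = 0.114 and 0.309).

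Nkg7, a granule membrane protein of cytotoxic lymphocytes (chromosome 7, 43437073 to 43438249), stood at 673, 1259 and 2463 CPM in members (lowest, median and highest of 7 mice). The reference stood at 302, 774 and 1290 CPM. Every mouse was higher in its members, although the ranges of the arms overlap between mice. The log2 ratio was 0.81 ± 0.13 (SE; edgeR adjusted p = 0.00649). Without LR mouse 4 the edgeR adjusted p was 0.0889. Nkg7 is on the list of CD8 T cell markers, whose Cd8a and Cd8b1 are at 0 by the gate. The list as a whole summed to 1638 to 5328 CPM in members (median 1943) and 1324 to 3517 in the reference (median 1963).

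S100a6, a calcium-binding protein of activated cells (chromosome 3, 90612882 to 90624181), was at 1198, 1547 and 3383 CPM in members and 935, 1440 and 1534 in the reference. It was higher in members of 6 of 7 mice, with PBS mouse 6 the exception, at a log2 ratio of 0.61 ± 0.12 (edgeR adjusted p = 0.0245). Without LR mouse 2 or 4 or PBS mouse 7, 8 or 9 the edgeR adjusted p was 0.101, 0.0901, 0.0567, 0.141 and 0.180. Rab11a, a small GTPase of recycling endosomes (chromosome 9, 64715299 to 64737758), was at 139, 269 and 373 CPM against 105, 144 and 162. It was higher in all 7 mice, at 0.95 ± 0.20 (edgeR adjusted p = 0.0258). Without LR mouse 2, 3 or 4 or PBS mouse 7 or 9 it was 0.101, 0.0815, 0.0901, 0.0567 and 0.107 in edgeR.

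Klf2, a transcription factor that keeps resting T cells in circulation (chromosome 8, 72319033 to 72321656), was at 0, 209 and 359 CPM in members and 255, 327 and 944 in the reference. It was lower in members of all 7 mice, at a log2 ratio of −1.15 ± 0.22 (edgeR adjusted p = 0.0129). Without LR mouse 3 or PBS mouse 8 or 9 the edgeR adjusted p was 0.0526, 0.135 and 0.107. Gm42418, a long noncoding RNA gene that overlaps ribosomal RNA sequence (chromosome 17, 39846958 to 39848788), was at 3762, 6464 and 7003 CPM against 5677, 8510 and 11236, lower in 6 of 7 mice (−0.52 ± 0.10, edgeR adjusted p = 0.0129). Its adjusted p in edgeR was 0.0550 to 0.107 without LR mouse 2, 3 or 4 or PBS mouse 8 or 9.

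Depth and the make-up of the reference moved with these 5 differences, and their part was not tested beyond the following values. Restricted to cells between the members' quartiles of depth (3375.5 to 6652 UMIs; 5 mice), 0 of 603 genes passed in edgeR, 34 had an unadjusted p under 0.05, and the log2 ratios were 1.18 for Nkg7, 0.51 for S100a6, −0.59 for Klf2 and −0.31 for Gm42418. Rab11a was not among those 603 genes, so it has no value at matched depth. With at least 2 Foxp3 UMIs required in both arms, 0 genes were higher and Gm42418 alone was lower. There Nkg7 was at 0.61 (edgeR adjusted p = 0.151), S100a6 at 0.55 and Rab11a at 1.05 (0.0799 each), and Klf2 at −0.53 (0.705). These calls depended on the gene filter: Nkg7, S100a6 and Rab11a were called higher in the same cells under a wider filter, given below.

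**Figure D3:**
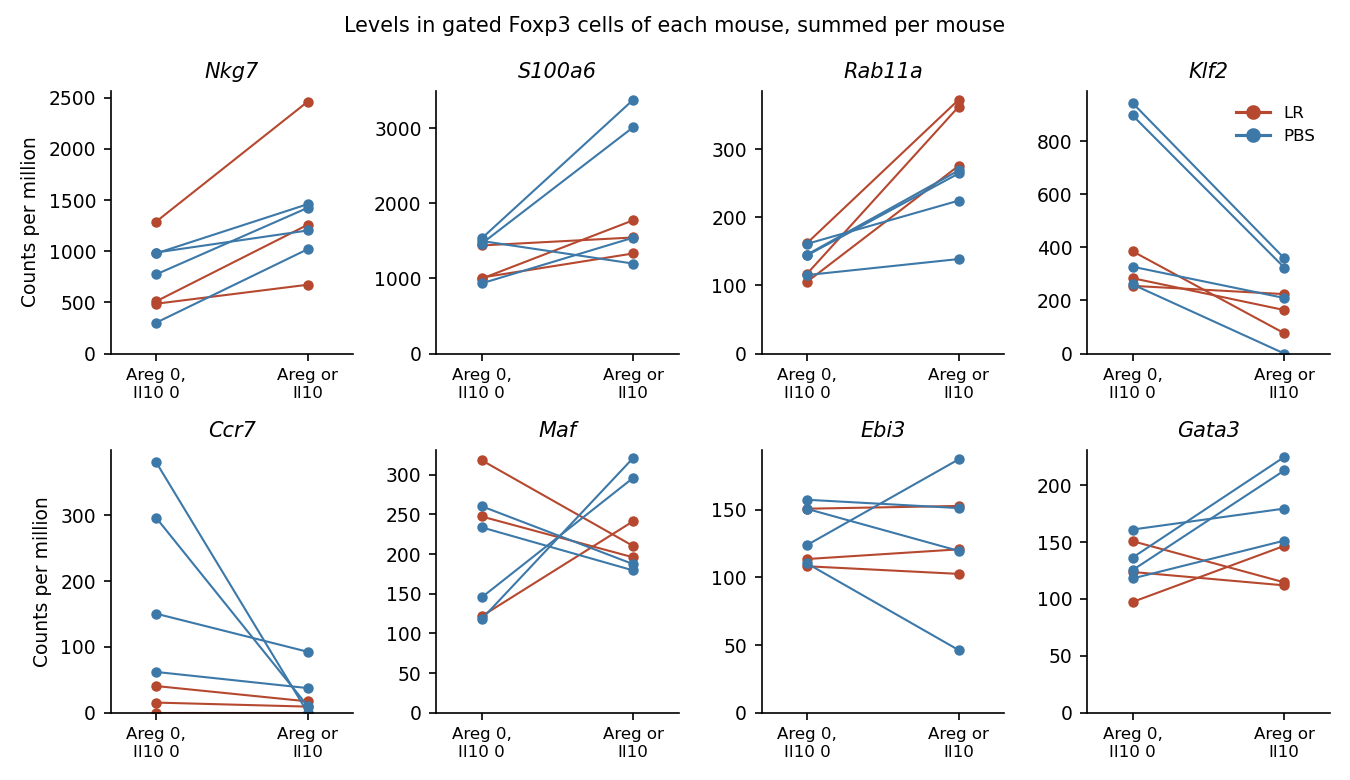
Levels (y axis, CPM, each panel on its own scale) of 8 genes in the reference and in the Areg or Il10 cells of 7 mice, with a line for each mouse (red LR, blue PBS). Nkg7 and Rab11a rise and Klf2 falls along every line, while the lines of Maf and Ebi3 cross.

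Maf and Ebi3, which were listed as markers of these cells, gave no called difference from other gated Foxp3 cells. Maf, a transcription factor of Il10-producing T cells, was at 179, 210 and 321 CPM in members and 118, 234 and 318 in the reference (log2 ratio 0.24 ± 0.23, edgeR adjusted p = 0.760). Ebi3, a subunit of interleukins 27 and 35, was at 46.3, 121 and 187 CPM against 108, 124 and 157 (−0.21 ± 0.23, edgeR adjusted p = 0.796). The cells are therefore named here by Foxp3, Areg and Il10 only. Il12a, the partner of Ebi3 in interleukin 35, gave 0 UMIs in members.

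Other regulators of these products gave no called difference either. Gata3, a factor of tissue-resident regulatory T cells, was at a log2 ratio of 0.30 ± 0.21 and Prdm1, which encodes Blimp-1, at −0.04 ± 0.27 (edgeR adjusted p = 0.649 and 0.982). Il1rl1, the receptor of interleukin 33, had a UMI in 9 members (8.41%) and 10 reference cells (4.41%), and Ahr, the aryl hydrocarbon receptor, in 7 and 17. Those are too few for the edgeR filter. Of the surface receptors, Ctla4 was at 0.24 ± 0.12, Il2ra at 0.14 ± 0.19 and Icos at 0.00 ± 0.13 (edgeR adjusted p = 0.508, 0.865 and 0.998).

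Most genes of the lists lie below the edgeR filter, so a wider fit took the 7838 genes with a UMI in at least 5% of member or reference cells. It called 14 genes higher (0.179%) and 15 lower (0.191%). Many of these rest on few cells, so the share of UMIs in the richest cell is given. The wider fit with at least 2 Foxp3 UMIs in every cell, on 6 mice, called 8 higher (0.102%) and 8 lower (0.102%). Among the higher were Nkg7 (0.57, edgeR adjusted p = 0.0133), S100a6 (0.50, 0.00541) and Rab11a (1.02, 0.0179). Gm42418 was among the lower (−0.40, edgeR adjusted p = 0.00346), while Klf2 was not called (−0.58, 0.866).

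Among the gene lists other than cell type markers, that of resting or central regulatory T cell genes stood lowest in the wider fit. All 14 of its genes were tested and all 14 had a negative log2 ratio, with a median of −1.07, against −0.04 over all genes tested. The 4 called, all lower, were Klf2, Ccr7, Igfbp4 and Tcf7. Ccr7, the lymph node homing receptor, was at 0, 9.96 and 92.5 CPM in members and 0, 62.0 and 380 in the reference, with UMIs in 8 and 43 cells (−2.25 ± 0.38, edgeR adjusted p = 2.51e-06). Tcf7, a factor of naive and memory T cells, had UMIs in 11 and 47 cells (−1.72 ± 0.38, edgeR adjusted p = 0.00484) but was lower in only 4 of 7 mice. Igfbp4 had 1 UMI in 1 member and 122 UMIs in 27 reference cells, most of them from PBS mice.

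With at least 2 Foxp3 UMIs in every cell, that list moved less. Its median was −0.44, with 11 of 14 genes negative, and Igfbp4 alone was called. Ccr7 was at −1.62 (edgeR adjusted p = 0.129) and Tcf7 at −0.30.

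**Figure D4:**
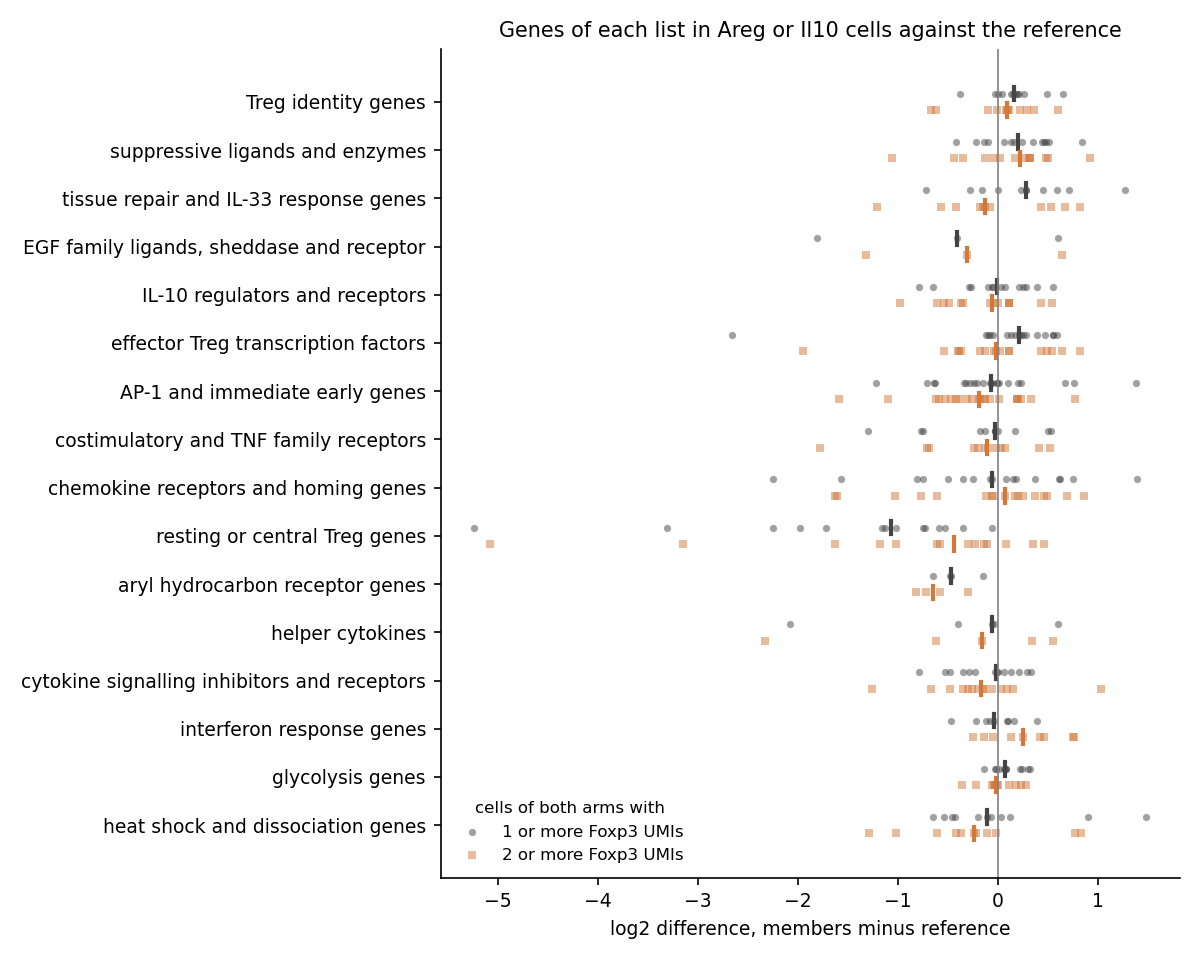
Log2 difference between members and reference (x axis) for each tested gene of the gene lists in the wider fit, with list medians as bars. Circles use all gated cells and squares the cells with at least 2 Foxp3 UMIs. Resting or central genes have a median of −1.07 with all cells and −0.44 with the stricter cells. With all cells the other medians shown lie between −0.47 and 0.28.

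Of the 14 suppressive ligands and enzymes tested in the wider fit 0 passed, with a median of 0.20. Lgals1, which encodes galectin 1, came closest among them, at 1584, 2322 and 2673 CPM in members and 1299, 1485 and 2294 in the reference, above its reference in 7 of 7 mice (0.39 ± 0.10, edgeR adjusted p = 0.0986 among the 1656 genes). Lag3, an inhibitory receptor, was at 0.54 ± 0.21 and Fgl2, a secreted suppressive protein, at 0.49 ± 0.20 (edgeR adjusted p = 0.306 and 0.326). With at least 2 Foxp3 UMIs in every cell, 1 of the 14 was called in the wider fit. That was Penk, lower in members (−1.05, edgeR adjusted p = 0.00702), against −0.42 (0.752) with all cells.

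Tissue repair and interleukin 33 response genes numbered 11 in the wider fit, with a median of 0.28 and 1 call. That was Klrg1, a receptor of differentiated effector cells, at 242, 466 and 926 CPM against 187, 260 and 821 (0.72 ± 0.17, edgeR adjusted p = 0.0110, higher in 5 of 7 mice). Among the 1656 genes its adjusted p was 0.252. With at least 2 Foxp3 UMIs the median of the list was −0.12, with 4 of 11 genes positive and 0 called, and Klrg1 was at 0.54 (edgeR adjusted p = 0.580). Klrg1 is also on the list of type 2 innate lymphoid cell markers, whose 3 tested genes had medians of 0.72 with all cells and 0.43 with the stricter cells. Effector transcription factors had 0 of 17 called, with Batf, a factor of effector regulatory T cells, at 0.58 ± 0.23 (edgeR adjusted p = 0.317).

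The machinery that releases amphiregulin was thinly covered. Of the other 11 genes of the epidermal growth factor list, 3 were tested and 0 called. Adam17, its main sheddase, had a UMI in 19 members and 30 reference cells, and Adam10, a related protease, in 36 and 37. Ereg, which encodes a related ligand, was at 0 in both arms.

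The wider fit also called the chemokine genes Ccl4 and Ccl3 and the immediate early gene Nr4a1 higher. These were singled out after their values were seen. Ccl4 was at 18.9, 369 and 1049 CPM in members and 13.1, 37.2 and 218 in the reference, higher in 6 of 7 mice (1.87 ± 0.24, edgeR adjusted p = 6.39e-11), and it stayed called with at least 2 Foxp3 UMIs (2.09). A single LR mouse 2 cell held 22.4% of its member UMIs. For Ccl3 a single cell held 40.4%, and for Nr4a1 30.1%, from LR mouse 2 and PBS mouse 6. Nr4a1 was higher in only 4 of 7 mice, and with at least 2 Foxp3 UMIs it went from 1.38 (edgeR adjusted p = 0.000142) to 0.78 (0.975).

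Within the members, cells with Areg alone and cells with Il10 alone could be compared in 4 mice with at least 5 cells of each (LR mice 2 and 4, PBS mice 7 and 8). None of the 684 genes tested in edgeR passed (0 calls, 0%), and 45 had an unadjusted p under 0.05. The count was also 0 in DESeq2. The values still show where the cells lay furthest apart. Gzmb, which encodes granzyme B, was at 444, 195, 503 and 81.8 CPM in Areg cells of those mice and at 407, 1253, 3376 and 1463 in Il10 cells. It was lower in Areg cells of 3 of 4 mice (−2.20 ± 0.49, edgeR adjusted p = 0.605). In PBS mouse 7, 1 cell with Il10 and no Areg held 134 of the 197 Gzmb UMIs of its members, and no fit was made without it.

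Il7r and Klf2, genes of less differentiated T cells, lay higher in Areg cells without passing the threshold. Il7r, the interleukin 7 receptor, was at 510, 1009, 935 and 764 CPM in Areg cells and 290, 627, 328 and 450 in Il10 cells, above in 4 of 4 mice (0.92 ± 0.24). Klf2 was at 247, 358, 336 and 300 against 58.1, 247, 135 and 180 CPM, also in 4 of 4 (1.00 ± 0.35; edgeR adjusted p = 0.605 for both). Klrg1, at −0.78 ± 0.28, and S100a6, at −0.58 ± 0.17, were lower in Areg cells of 4 of 4 mice, with the same adjusted p in edgeR. Maf, at −0.09 ± 0.32, went each way in 2 mice.

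In the wider fit, 11 of 7822 genes passed (0.141%), 10 of them higher in Il10 cells. These included Gzmb, Penk, Ccl4, Nr4a1, Hspa1a and the antigen presentation genes Cd74, H2-Aa and H2-Eb1, and the 1 higher in Areg cells was Ms4a4b. Ms4a4b, a membrane protein of T cells, was at 411, 325, 671 and 191 CPM in Areg cells and 87.1, 38.0, 38.6 and 90.01 in Il10 cells. Hspa1a was at 0, 0, 1157 and 0 CPM in Il10 cells, so its difference comes from PBS mouse 7, where 1 cell held 51 of 60 member UMIs. For the antigen presentation genes, 1 cell of LR mouse 4 with 2 Il10 UMIs and no Areg held 34.8% of all Cd74, 63.8% of all H2-Eb1 and 82.1% of all H2-Aa UMIs of the members, and no fit was made without it. Cd74 was at 1103, 878, 863 and 273 CPM in Areg cells and 2150, 5526, 463 and 1800 in Il10 cells, so Il10 cells of LR mouse 2 and PBS mouse 8 also stood higher.

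Between LR and PBS mice the Areg or Il10 cells showed no called difference in edgeR. Of 1823 genes 0 passed (0%), with 64 at an unadjusted p under 0.05, on 3 LR and 4 PBS mice. DESeq2 called 1, Cd74. The levels of the defining genes overlapped: Areg was at 767, 134 and 345 CPM in LR mice 2 to 4 and 337, 339, 490 and 151 in PBS mice 6 to 9. Il10 was at 181, 172 and 270 against 225, 259, 305 and 340 CPM.

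Regulators of these genes gave no called difference. Maf was at 241, 210 and 196 CPM in LR and 187, 179, 296 and 321 in PBS mice (−0.20 ± 0.29). Gata3 was at 147, 115 and 112 CPM against 225, 179, 213 and 151, with the 3 LR mice below the 4 PBS mice by a narrow margin (−0.58 ± 0.30). Ahr, the receptor for tryptophan-derived ligands, had 0 to 18.7 CPM in LR and 0 to 56.7 in PBS mice. The edgeR adjusted p was 1.00 for both Maf and Gata3.

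Jun, an AP-1 family transcription factor, was at 138, 95.5 and 401 CPM in LR members and 524, 498, 204 and 359 in PBS members, so the groups overlapped (−0.74 ± 0.43, edgeR adjusted p = 1.00). Without LR mouse 4 its log2 ratio was −1.63, and without LR mouse 2 or 3 it was −0.46 and −0.48. All 15 AP-1 and immediate early genes tested had a negative log2 ratio, as did 900 of all 1823 genes tested. The list median was −0.29 against 0.00 over all genes tested, and 0 of the 15 were called. In the wider fit 19 of 22 were negative, against 3636 of all 7833 genes. Heat shock and dissociation genes, which respond to tissue handling, leaned the same way, with 8 of 10 negative and a median of −0.35. In the wider fit the median was −0.51, with Hspa1a and Hspa1b called lower in LR members. A single PBS mouse 6 cell held 44.6% of the Hspa1b UMIs of all members. Without that cell PBS mouse 6 would stand at 214 CPM instead of 2060. For Hspa1a, 1 PBS mouse 7 cell held 49.5%. The part of the heat shock genes in the AP-1 values was not tested. The contrast of members with reference, compared between LR and PBS mice, was negative for 8 of 15 AP-1 and immediate early genes. Its median over that list was −0.04, so the lean was not shown to be particular to the members.

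Cd74 levels did not overlap between the groups, and 1 cell carried much of that in LR mouse 4. Cd74, the invariant chain of MHC class II, was at 1768, 1031 and 3022 CPM in LR members and 524, 767, 888 and 397 in PBS members, with no overlap (1.54 ± 0.31, edgeR adjusted p = 0.252). Without its richest cell, LR mouse 4 would stand at 467 CPM, among the PBS mice. The myeloid marker list, of which Cd74 is part, summed to 1108 to 4831 CPM in LR and 416 to 1027 in PBS members, and in the reference to 1005 to 5550 and 170 to 4528. Leaving out LR mouse 2 or 4 gave Cd74 log2 ratios of 1.62 and 1.07 (edgeR adjusted p = 0.819 and 0.6145). Leaving out LR mouse 3 gave 1.82 (edgeR adjusted p = 0.00312). With a Cd4 UMI required in every cell, the log2 ratio was 0.30 and Cd74 was not called. Among the alternative settings, those without 1 mouse included, Cd74 was called in 6 and not called in 14.

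The wider fit called 14 of 7833 genes between LR and PBS members (0.179%). Gzmb was among the lower ones, at 431, 267 and 914 CPM in LR and 1086, 1963, 657 and 964 in PBS mice (−1.03 ± 0.24, edgeR adjusted p = 0.00997), and its adjusted p among the 1823 genes was 0.951. A single PBS mouse 7 cell held 24.2% of its member UMIs, and without it that mouse would stand at 748 CPM. H2-Aa and Ifitm3, both higher, had 82.1% and 81.4% of their member UMIs in that 1 LR mouse 4 cell.

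**Figure D5:**
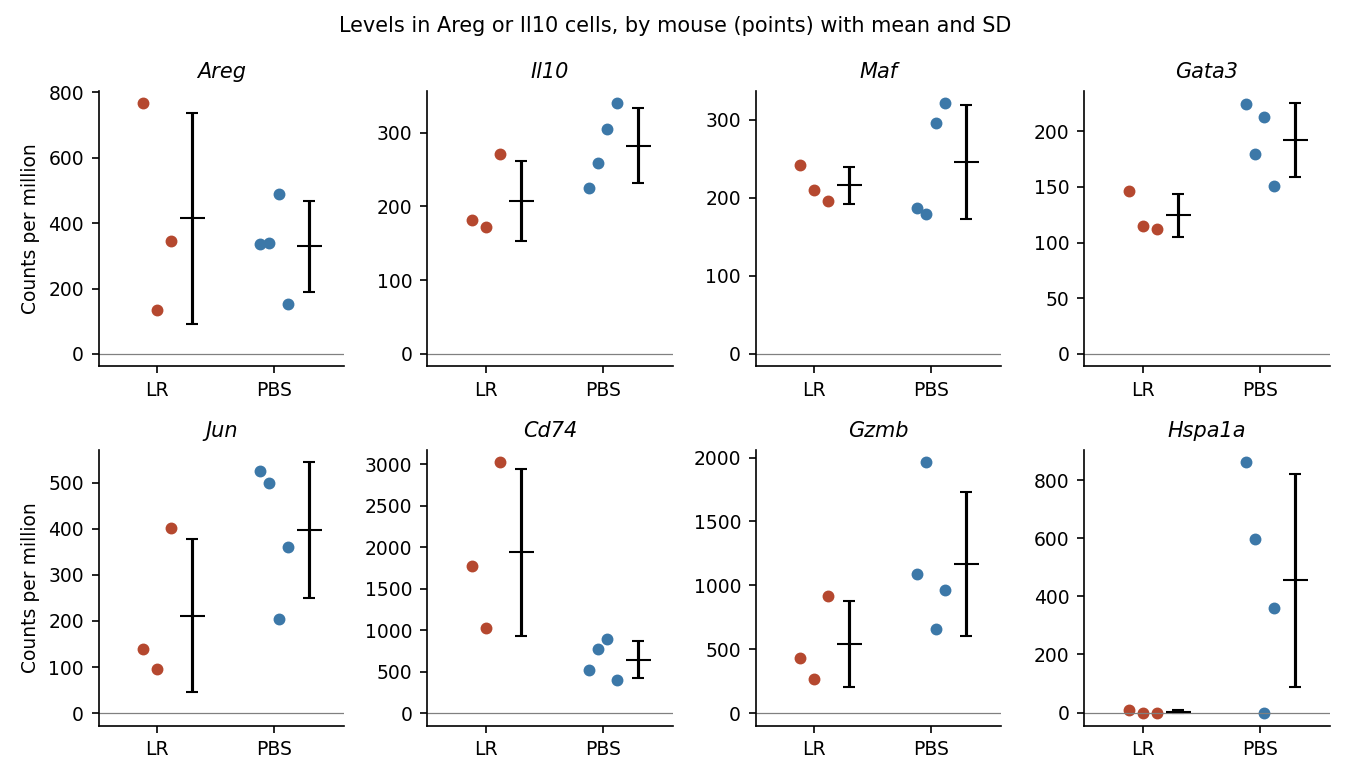
Levels (y axis, CPM, each panel on its own scale) of 8 genes in the Areg or Il10 cells of 3 LR and 4 PBS mice (points), with mean and SD beside them. Areg, Il10, Maf, Jun and Gzmb overlap between the groups, Cd74 and Gata3 do not, and Hspa1a is near 0 in all LR mice and in PBS mouse 8.

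The contrast of members with reference was also compared between LR and PBS mice. In edgeR 1 of 2347 genes differed (0.0426%), and in the wider fit 11 of 7838 (0.14%). The 1 gene was Hspa1a, a stress-induced heat shock protein (chromosome 17, 34969190 to 34972156). In members it was at 8.62, 0 and 0 CPM in LR mice 2 to 4 and 861, 598, 0 and 359 in PBS mice 6 to 9, and in the reference at 219, 16.7 and 23.2 against 136, 36.3, 5.01 and 39.3. The fitted difference was −7.63 (edgeR adjusted p = 2.32e-05), a size that depends on the zeros and is no bound. Its 103 member UMIs came from 7 cells, 1 of which held 49.5%, and without LR mouse 2 the edgeR adjusted p was 0.690.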

How the data were processed

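The measurement was single-cell 5' RNA sequencing with hashtags, in 8 mice on 1 lane. Reads were processed with Cell Ranger 4.0.0 and GRCm38, per the submitters' processing notes. The deposited matrix holds UMI counts that the authors did not normalise, for 32285 genes and 9 hashtags in 16969 barcodes. The hashtag LR_mouse_5 had no passing cell. Mouse and treatment were read from the hashtag names. The members and gene lists were chosen with earlier results of these data known.

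Counts were summed per mouse and arm (at least 5 cells in each) and tested with the quasi-likelihood test of edgeR 4.0.16 (R 4.3.3; TMM factors, filterByExpr, mouse as a block where both arms come from the same mice, Benjamini-Hochberg threshold 0.05 over all genes tested). DESeq2 1.42.0 was the alternative. Blocking is by shared animal. CPM are summed counts scaled to 1e+06. Shares were compared by two-sided exact permutation over mice. The wider filter and the requirement of at least 2 Foxp3 UMIs were added after seeing the data. Scripts were tested on simulated data. Scrublet (scanpy 1.11.5) marked 1971 of the 14474 barcodes that passed the gene and mitochondrial filters (13.6%), and removing them was an alternative.

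Named genes were Foxp3, Areg, Il10, Maf, Ebi3, Il1rl1, Gata3, Prdm1, Ahr, Jun, Ctla4, Icos, Il2ra and Klf2, up to 4 called per list, and called genes outside the lists that went 1 way in every mouse. Others were named after their values were seen, among them S100a6, Gm42418 and the genes of the wider filter. Of 32285 gene IDs, 32158 matched GENCODE M21. Sums of 26703 to 115965 member UMIs per mouse limit the precision, and intervals cover counting error only.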

Additional observations from a re-analysis of the deposited data

Results flagged for a closer look

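Among 42 groups of 4 mice examined for an isolated highest or lowest mouse, 4 had one, and chance alone gives one in about 1 in 20 groups. In PBS mice, Ahr in reference cells was highest in PBS mouse 8 at 35.1 CPM, and Prdm1 in reference cells was highest in PBS mouse 9 at 184 CPM. Ctla4 in the Areg or Il10 cells was highest in PBS mouse 6 at 2472 CPM, from 7 cells. S100a6 in reference cells was lowest in PBS mouse 7 at 935 CPM. The fifth value is the Hspa1a contrast, which differed between LR and PBS mice by −7.63 on the log2 scale in the edgeR interaction test.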

How the results depend on the processing

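Counts of genes higher in members were 1 with DESeq2, 17 with no filter, 14 with the 5% filter, 5 with at least 2 Areg and Il10 UMIs, 8 with at least 2 Foxp3 UMIs and the 5% filter, and 0 with a Cd4 UMI, matched depth, at least 2 Foxp3 UMIs, or no replicate block. Genes lower were 20 with no filter, 15 with the 5% filter, 8 with at least 2 Foxp3 UMIs and that filter, 1 with at least 10 cells, 90% hashtag purity or at least 2 Foxp3 UMIs, and 0 with a Cd4 UMI, matched depth or no replicate block. LR against PBS in members gave 1 with DESeq2 or 90% purity, 18 with no filter, 14 with the 5% filter, 2 with at least 10 cells and 3 with at least 2 Areg and Il10 UMIs. The interaction gave 12 with no filter, 11 with the 5% filter, 2 with a Cd4 UMI, 3 with at least 2 Areg and Il10 UMIs, and 0 at matched depth or with at least 2 Foxp3 UMIs. Areg against Il10 cells gave 12 with no filter and 11 with the 5% filter. Leaving out 1 mouse gave 0 to 4 higher, 0 to 3 lower, 0 to 3 between LR and PBS, 0 to 6 in the interaction and 0 to 2 between Areg and Il10 cells. The share difference ran from 1.32 to 11.4 points, the latter without LR mouse 1. No direction reversed among these results. For Areg against Il10 cells, fits with at least 10 cells, a Cd4 UMI or matched depth were not run, as fewer than 3 mice remained. Depth limits these calls: few genes reach the filter, and genes under it rest on few UMIs.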
